A study of Homo sapiens with 6 samples.

Results

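The loci of 7 genes of the mesenchymal state were examined in Calu-3, an established airway epithelial line from a lung adenocarcinoma: VIM, CDH2, COL1A1, ZEB1, ZEB2, SNAI2 and TWIST1. Each was read in a fixed hg19 window that spans the gene and about 50 kb on each side, and every called interval overlapping a window by at least 1 bp was taken. The 7 windows hold 1.33 Mb and contained 52 of the 73341 intervals in the 4 deposited lists. Chromatin immunoprecipitation and sequencing was done in Calu-3 cells grown in low-glucose medium with fetal bovine serum, with no treatment named, for the epithelial ETS factor EHF (2 libraries) and for the histone marks H3K4me1 and H3K27ac (1 library each). Each EHF library was called against the first of 2 input libraries and each mark against the second. All libraries come from 1 cell line, and no label states whether the EHF replicates were grown separately. The study asked where EHF binds in these cells and what chromatin surrounds it.

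Epithelial cells hold together through E-cadherin junctions, and in an epithelial-mesenchymal transition they exchange these for a motile, matrix-producing state. ZEB1, ZEB2, SNAI2 and TWIST1 are transcription factors that drive this change, and ZEB and SNAI proteins bind E-boxes in epithelial genes and repress them. VIM (the intermediate filament vimentin), CDH2 (N-cadherin) and COL1A1 (a chain of type I collagen) are genes commonly used to mark the mesenchymal state. H3K27ac is found at active promoters and enhancers, and H3K4me1 at enhancers, whether active or not. The marks are read here as called regions, and the RNA or protein of these genes was not measured. The defining markers of epithelial cells could not be looked up in the lists without an hg19 annotation, so the identity of the line rests on its label.

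H3K27ac regions were called in 6 of the 7 windows (20 regions), H3K4me1 regions in 6 (27 regions) and EHF peaks in 4 (5 peaks). SNAI2 was the member with no interval in any list. For scale, the genome was divided into tiles of the windows' own lengths. An H3K27ac region was held by 47.3% of tiles of 110 kb (the length for VIM, SNAI2 and TWIST1), 49.3% of 120 kb (COL1A1), 63.4% of 240 kb (ZEB2), 68.3% of 310 kb (ZEB1) and 69.4% of 330 kb (CDH2). In the same order the shares were 39.6%, 41.3%, 55%, 59.6% and 60.7% for H3K4me1. They were 4.9%, 5.31%, 9.82%, 12.1% and 12.8% for EHF replicate 1, and 13.8%, 14.8%, 24.8%, 28.9% and 30.4% for EHF replicate 2. The 6 of 7 windows with each mark therefore stand beside tile shares of 39.6% to 69.4%. The 4 windows with an EHF peak were 2 for each replicate, and no tile share was computed for the replicates pooled. Tiles include gene-free stretches and assembly gaps, so they describe the lists and are not gene loci matched to the members. Per Mb, the windows held 15 H3K27ac regions against 11.2 in the whole list, and 20.3 H3K4me1 regions against 10.3. For EHF the values were 1.5 against 0.497 in replicate 1 and 2.26 against 1.69 in replicate 2, from 2 and 3 peaks. The whole-list rates also count gene-free stretches and assembly gaps, so they do not show whether the members differ from other genes. No test was made, because each mark has 1 library.

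**Figure D1:**
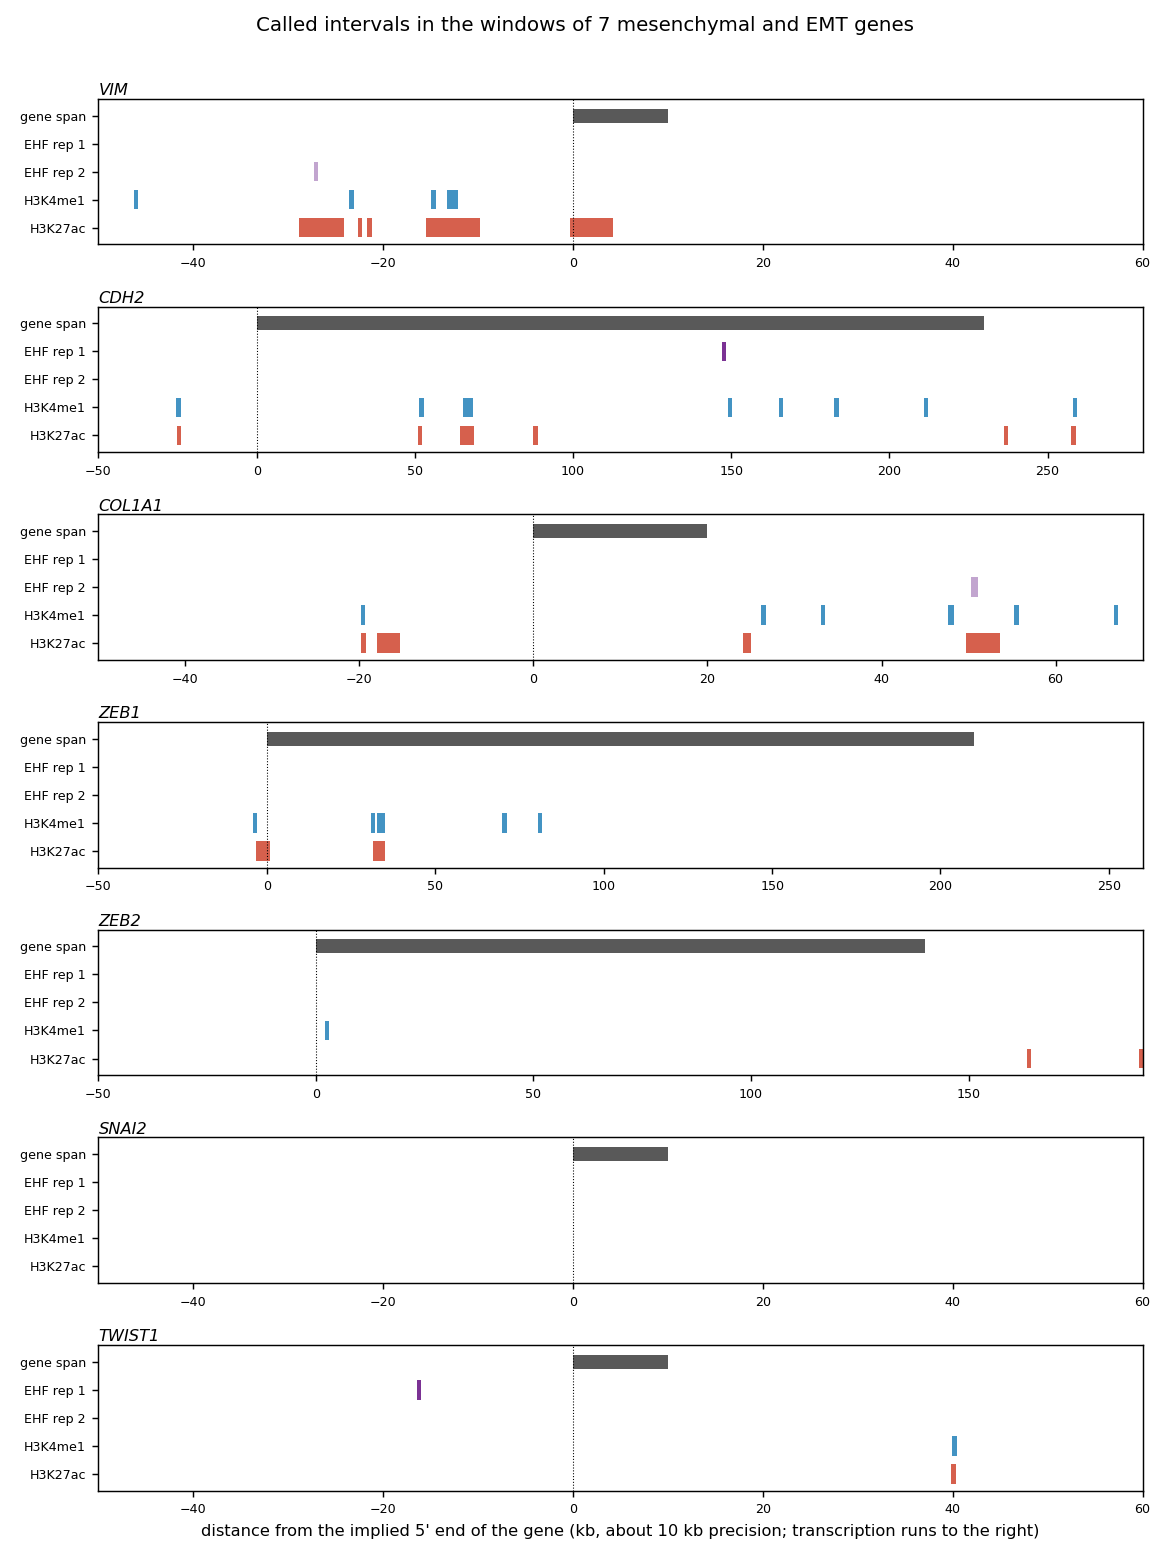
Called intervals of the 4 lists (rows, coloured by list) in each gene window, against distance in kb from the implied 5′ end of the gene, with the gene span as a grey bar and transcription to the right. Intervals too narrow to see are drawn at a minimum width. H3K27ac lies over the 5′ end of VIM and ZEB1 and the SNAI2 panel is empty.

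The position of each gene was taken from the window itself, 50 kb inside its edges, and is known to about 10 kb, so that shorter distances to a 5′ end are nominal. By this reading the 5′ end was covered by an H3K27ac region in 2 members, VIM and ZEB1. An H3K4me1 region lay within 5 kb of it in 2 members, ZEB1 and ZEB2. No EHF peak of either replicate lay within 5 kb of the 5′ end of any member. CDH2, COL1A1, SNAI2 and TWIST1, 4 members in all, had no interval of any list that close. For scale, H3K27ac regions cover 2.1% of all bases of the genome and H3K4me1 regions 0.764%. EHF peaks cover 0.00751% in replicate 1 and 0.0211% in replicate 2. The share of all gene starts with such an interval was not computed. These counts therefore do not show whether the members differ from other genes.

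The bases before the start of transcription are shown for the members with a mark region over or within 5 kb of the implied 5′ end (VIM, ZEB1 and ZEB2). They are also shown for CDH2, which had none that close. Each is the 250 bases before the furthest upstream start of the gene in RefSeq (GRCh38.p14), written 5′ to 3′ on the gene's strand. The promoter table held 4 of the 7 members and did not match COL1A1, SNAI2 and TWIST1. The GRCh38.p14 positions are chr10:17227991-17228240 (plus strand) for VIM, chr10:31318167-31318416 (plus strand) for ZEB1, chr2:144520120-144520369 (minus strand) for ZEB2 and chr18:28177131-28177380 (minus strand) for CDH2. They were not converted to hg19, so whether a printed base lies inside a called region was not determined. Capitals mark GGAA, the core of ETS sites (TTCC on the other strand), the longer ETS match AGGAAG (which contains GGAA and reads CTTCCT on the other strand), and the E-box of ZEB and SNAI factors, CACCTG, which reads as CAGGTG on the other strand.
VIM: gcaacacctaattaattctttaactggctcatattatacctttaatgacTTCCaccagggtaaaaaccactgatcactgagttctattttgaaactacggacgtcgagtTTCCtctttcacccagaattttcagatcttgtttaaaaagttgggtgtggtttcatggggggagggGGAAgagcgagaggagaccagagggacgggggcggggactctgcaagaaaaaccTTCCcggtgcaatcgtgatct
ZEB1: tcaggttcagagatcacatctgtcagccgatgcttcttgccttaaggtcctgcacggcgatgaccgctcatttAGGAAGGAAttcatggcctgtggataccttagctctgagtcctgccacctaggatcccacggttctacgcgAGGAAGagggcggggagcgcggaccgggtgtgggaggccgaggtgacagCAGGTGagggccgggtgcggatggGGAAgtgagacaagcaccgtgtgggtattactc
ZEB2: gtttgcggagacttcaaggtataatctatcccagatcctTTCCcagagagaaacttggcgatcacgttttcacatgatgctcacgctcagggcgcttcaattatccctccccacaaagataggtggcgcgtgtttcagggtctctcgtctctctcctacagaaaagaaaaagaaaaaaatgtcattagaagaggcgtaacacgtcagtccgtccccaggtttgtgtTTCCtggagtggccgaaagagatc
CDH2: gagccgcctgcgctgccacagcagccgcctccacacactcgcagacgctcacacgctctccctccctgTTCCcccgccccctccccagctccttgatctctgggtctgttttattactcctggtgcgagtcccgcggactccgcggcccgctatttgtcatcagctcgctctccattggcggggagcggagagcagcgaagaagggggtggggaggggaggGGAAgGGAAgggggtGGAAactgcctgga
GGAA matched 4 times in VIM, ZEB1 and CDH2 and 2 times in ZEB2, and 92.7% of the 35116 promoters of this length held at least 1 match (median 3). AGGAAG was found 2 times in the printed ZEB1 bases and in none of the other 3, and 28.7% of all promoters held it. CACCTG was found 1 time in ZEB1 and in none of the other 3, against 17.5% of all promoters. RefSeq lists 7 starts for ZEB1 and 2 for CDH2, and of the 11 starts of the 4 genes 4 had AGGAAG and 2 had CACCTG. A match is a run of letters and not a binding site.

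Among the 7 members VIM had the largest share of its window in H3K27ac regions. Its window (chr10, 17.22 to 17.33 Mb) held 5 H3K27ac regions that covered 15.93 kb, or 14.5% of it, and 2.34% of the 110 kb tiles were covered as far. The region over the 5′ end, chr10:17269640-17274179, was 4540 bp wide and had a score of 255. The score is the authors' own tag count of the interval, scaled to 10000000 tags per library, and has no error of its own. In the H3K27ac list 93.8% of regions scored at or below that value, and 89.9% were at or below this region in score per base. This region held no H3K4me1, the nearest being 11766 bp away.

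Upstream of VIM the marks continued. The widest and highest-scoring H3K27ac region in any of the windows, chr10:17254480-17260175 (5696 bp, score 364), ended 9.8 kb before the implied 5′ end. Inside it lay 2 of the 4 H3K4me1 regions of the window, chr10:17255022-17255522 with a score of 10 and chr10:17256752-17257874 with a score of 26. The third large H3K27ac region, chr10:17241154-17245848 (4695 bp, score 221), lay 24.2 kb upstream and contained the EHF peak of the window. That peak, chr10:17242862-17242986, was called in replicate 2 with a score of 11 and had no counterpart in replicate 1, whose nearest peak was 2621997 bp away.

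The remaining VIM intervals were narrow. The H3K27ac regions chr10:17247307-17247807 and chr10:17248329-17248829 had the 501 bp minimum width, with scores of 10 and 8. The H3K4me1 regions chr10:17223717-17224217 and chr10:17246418-17246918 had the same width, with scores of 11 and 10. All 4 H3K4me1 regions of the window lay on the 5′ side of the gene and none in it. In RefSeq, TRDMT1, which encodes an RNA methyltransferase, neighbours VIM on that side, and the antisense gene VIM-AS1 overlaps VIM. Which gene each region belongs to was not determined.

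CDH2 showed marks inside a long gene and none near its start. Its window (chr18, 25.48 to 25.81 Mb) held 6 H3K27ac and 9 H3K4me1 regions, of which 3 and 7 were centred in the gene span of about 230 kb. H3K4me1 covered 2.17% of the window, a share reached by 10.4% of the 330 kb tiles, and H3K27ac 2.53%, reached by 28.1%. The interval nearest the 5′ end was an H3K27ac region of 1355 bp with a score of 39, chr18:25783779-25785133, which lay 23.8 kb upstream and overlapped the H3K4me1 region chr18:25784470-25784970, of 501 bp and with a score of 16.

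The main H3K27ac region of CDH2 lay 64.3 kb into the gene, chr18:25691454-25695668 (4215 bp, score 119), with 82.4% of the list at or below its score. In score per base, 51% of the list was at or below this region, so its score rank goes with its width. The region overlapped 2 H3K4me1 regions, with scores of 19 and 20. The highest-scoring and widest H3K4me1 region of all 7 windows, chr18:25707175-25708810 (1636 bp, score 29), lay 51.2 kb into the gene over an H3K27ac region of 770 bp and score 16. In score per base this H3K4me1 region was low, with 1.73% of its list at or below it. Further in, 4 H3K4me1 regions between 149.3 and 211.4 kb from the start, with scores of 11 to 27, had no H3K27ac region closer than 24673 bp. The EHF peak chr18:25612264-25612414 lay beside this stretch, 1566 bp from one of these H3K4me1 regions and 59173 bp from the nearest H3K27ac region. It was called in replicate 1 with a score of 9, the median of that list. The nearest peak of replicate 2 was 1122869 bp away.

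COL1A1 had marks on both sides of the gene and none in it. Its window (chr17, 48.21 to 48.33 Mb) held 4 H3K27ac regions covering 6.65% of the bases, as far as 9.37% of the 120 kb tiles, and 6 H3K4me1 regions covering 2.61%, as far as 8.69% of the tiles. No region of either mark was centred in the gene span of about 20 kb. The nearest to the 5′ end was an H3K27ac region 15.4 kb upstream, chr17:48295366-48298039 (2674 bp, score 169). An H3K27ac region of 501 bp and score 11, at chr17:48299278-48299778, lay beside it and overlapped the H3K4me1 region nearest the 5′ end, chr17:48299315-48299815 (score 9).

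The highest H3K27ac score of the COL1A1 window was on the far side, beyond the 3′ end. This region, chr17:48226385-48230273 (3889 bp, score 209), held the 2 EHF peaks of the window, chr17:48229098-48229222 and chr17:48229449-48229573, each with a score of 11 in replicate 2. They were 226 bp apart, and the nearest peak of replicate 1 was 153185 bp away from the closer one. Of the 120 kb tiles, 3.75% held 2 or more peaks of replicate 2. PPP1R9B, which encodes the scaffold protein spinophilin, and the muscle gene SGCA neighbour COL1A1 on that side in RefSeq. The peaks lay 50.4 and 50.8 kb from the COL1A1 start, and which gene they belong to was not determined. The last H3K27ac region of the window, chr17:48254955-48255870 (score 29), was also on the 3′ side, as were 5 of the 6 H3K4me1 regions (scores of 10 to 21). The widest and highest-scoring of these, chr17:48231676-48232304 (629 bp, score 21), lay 1403 bp from the H3K27ac region with the EHF peaks.

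Of the 4 transcription factor genes, ZEB1 had the largest share of its window in regions of each mark. Its window (chr10, 31.56 to 31.87 Mb) held 2 H3K27ac regions, both wide. The first, chr10:31606633-31610925 (4293 bp, score 162), covered the implied 5′ end. Of the list, 88.0% scored at or below this region, and 71.3% were at or below it in score per base. An H3K4me1 region of 871 bp and score 18, chr10:31606057-31606927, overlapped the upstream edge of the H3K27ac region, 3.1 kb from the 5′ end. At VIM, by contrast, the region over the start met no H3K4me1 region. RefSeq lists the antisense gene ZEB1-AS1 at the same place, and marks there cannot be told apart by gene.

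The second ZEB1 region lay 31.5 kb into the gene, chr10:31641487-31645009 (3523 bp, score 128), and overlapped 3 of the 6 H3K4me1 regions of the window, with scores of 11, 10 and 20. The other 2 H3K4me1 regions in the gene, chr10:31680333-31680833 (score 10) and chr10:31690595-31691372 (score 22), lay 70.3 and 80.6 kb from the start without H3K27ac. In all, H3K27ac covered 2.52% of the window, which 27.7% of the 310 kb tiles reached, and H3K4me1 1.23%, which 20.6% reached. No EHF peak was called in the window. The nearest were 186.2 kb upstream of the 5′ end in replicate 2 (score 8) and 261.5 kb upstream in replicate 1 (score 10).

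ZEB2, the paralogue of ZEB1, had 1 small H3K4me1 region near its start and no H3K27ac there. The 1 H3K4me1 region of its window (chr2, 145.09 to 145.33 Mb) lay 2.3 kb inside the 5′ end, chr2:145277188-145277688, with the minimum width of 501 bp and a score of 12. No H3K27ac region was within 160867 bp of that region. The 2 H3K27ac regions counted for ZEB2 were beyond the 3′ end, chr2:145115821-145116321 with a score of 13, and chr2:145088749-145090717 with a score of 67, which crosses the edge of the window. H3K27ac covered 0.507% of the window, below the tile median of 0.748%. No EHF peak was called there, and the nearest were 280.4 kb from the 5′ end in replicate 2 and 581.4 kb in replicate 1.

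SNAI2 (Slug) had no EHF peak and no region of either mark in its window (chr8, 49.78 to 49.89 Mb). An H3K27ac region of 632 bp with a score of 13, chr8:49777118-49777749, lay 2.3 kb outside the window and 52.3 kb from the gene on its 3′ side. The nearest H3K4me1 region, chr8:49726474-49728047 (score 32), was 112.0 kb from the 5′ end. EHF peaks were much further off, at 4417.0 kb in replicate 2 and 7141.3 kb in replicate 1. In 52.7% of the 110 kb tiles no H3K27ac region was called either, and in 60.4% no H3K4me1 region. For EHF the shares without a peak were 95.1% in replicate 1 and 86.2% in replicate 2. An empty window was thus common in each list taken alone, and the share of tiles empty in all 4 lists at once was not computed.

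TWIST1, a basic helix-loop-helix factor, had 1 small site with both marks, far from the gene. In its window (chr7, 19.10 to 19.21 Mb) the H3K27ac region chr7:19119665-19120165 (score 12) and the H3K4me1 region chr7:19119536-19120036 (score 13) overlapped on the 3′ side, the former 39.8 kb from the 5′ end. Both had the minimum width of 501 bp. The EHF peak chr7:19176184-19176334 lay 16.2 kb upstream of the 5′ end, with a score of 9 in replicate 1, and 4.9% of the 110 kb tiles held a peak of that list. It was 56019 bp from the nearest H3K27ac region and 250324 bp from the nearest peak of replicate 2. In RefSeq the other gene on that side of TWIST1 is FERD3L, a related factor.

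**Figure D2:**
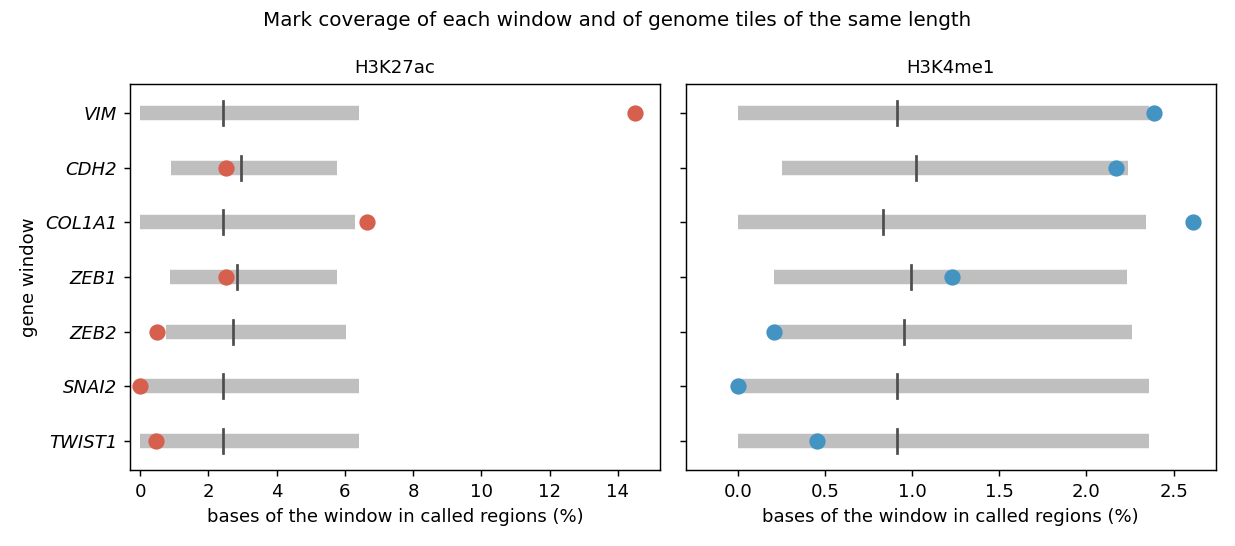
Share of the bases of each gene window inside called regions (points, percent) for H3K27ac and H3K4me1, with the range from the median to the 90th percentile of genome tiles of the same length (grey bar) and their upper quartile (dark line). VIM at 14.5% and COL1A1 at 6.65% lie beyond the bar for H3K27ac, and SNAI2 is at 0 for both marks. For H3K4me1, VIM (2.39% against 2.36% at the end of the bar) and COL1A1 (2.61% against 2.34%) lie just beyond it.

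The 7 windows thus ranged from 0 to 14.5% in H3K27ac coverage and from 0 to 2.61% in H3K4me1 coverage. By H3K27ac coverage the order was VIM, COL1A1, CDH2, ZEB1, ZEB2, TWIST1 and SNAI2, with CDH2 (2.53%) and ZEB1 (2.52%) almost equal. With 1 library there is no spread to say which neighbours in that order differ. By H3K4me1 coverage COL1A1 (2.61%), VIM (2.39%) and CDH2 (2.17%) came before ZEB1 (1.23%), TWIST1 (0.455%) and ZEB2 (0.209%). These orders depended on the flanks. In windows with about 10 kb on each side of the gene, H3K27ac covered 15.7% at VIM, 3.40% at ZEB1, 2.39% at CDH2, 2.29% at COL1A1 and 0% at ZEB2, SNAI2 and TWIST1, so that ZEB1 came before COL1A1 and CDH2. H3K4me1 then covered 2.41% at CDH2, 1.66% at ZEB1, 1.25% at COL1A1, 0.313% at ZEB2 and 0% at VIM, SNAI2 and TWIST1, so that VIM went from the second place to no coverage.

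In median score and median width, single regions in the windows were close to those of the lists. The minimum width of 501 bp was held by 7 of the 20 H3K27ac regions, against 19.9% of that list. For H3K4me1 it was held by 16 of the 27 regions, against 53.3% of that list. The 20 H3K27ac regions had scores of 8 to 364 with a median of 36, against 38 in the whole list, and a median width of 1182 bp against 1370 bp. The 27 H3K4me1 regions had scores of 9 to 29 with a median of 13, against 14, and a median width of 501 bp in both. Of the H3K27ac regions in the windows 9 (45.0%) overlapped an H3K4me1 region, and 34.5% of the whole list did. Of the H3K4me1 regions 13 (48.1%) overlapped H3K27ac, against 45.2% of the list.

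**Figure D3:**
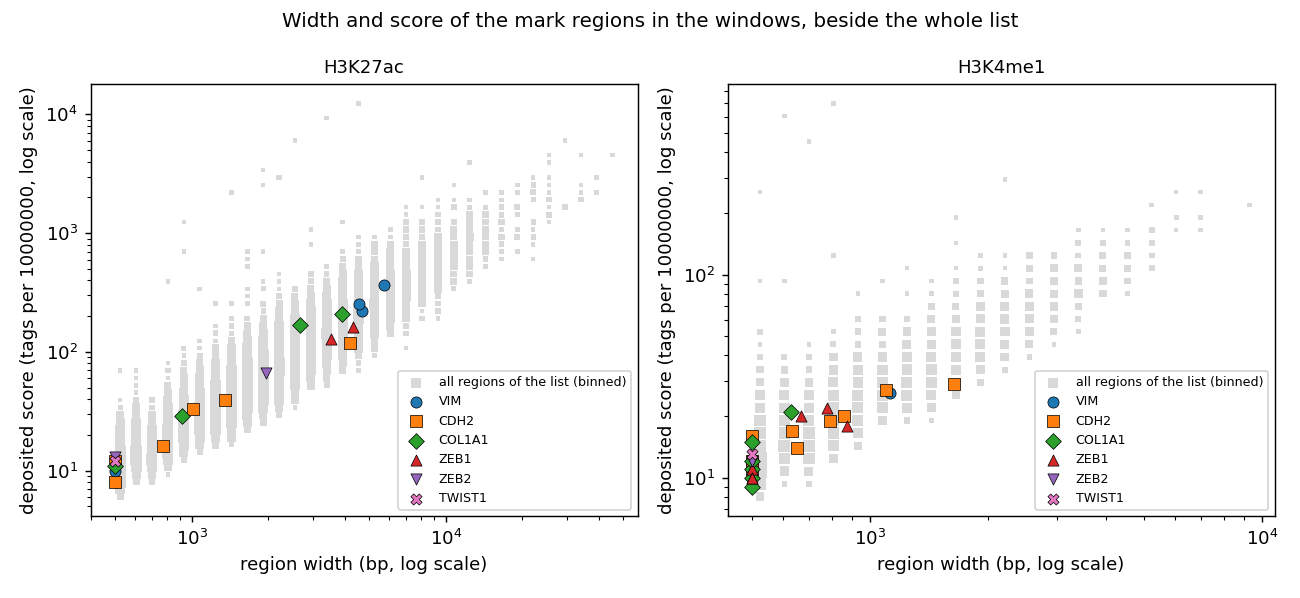
Deposited score (tags per 10000000, log scale) against region width (bp, log scale) for the mark regions in the gene windows (coloured by gene), over all regions of the list in grey bins whose size grows with their number. The members lie within the grey cloud in both lists, with VIM the highest for H3K27ac (score 364) and CDH2 for H3K4me1 (score 29).

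The 5 EHF peaks of the windows split by replicate. The 2 peaks of replicate 1, at CDH2 and TWIST1, each scored 9 and lay outside H3K27ac. The 3 of replicate 2, at VIM and COL1A1, each scored 11, below the list median of 12, and lay inside H3K27ac. None of the 5 overlapped an H3K4me1 region, and none was found in the other replicate. In the whole lists 49.97% of replicate 1 peaks and 14.7% of replicate 2 peaks overlapped a peak of the other, 60.8% and 63.8% lay in H3K27ac, and 10.1% and 7.98% in H3K4me1. The site called in both replicates that was nearest to any member was at chr17:48075763-48075913, 204 kb from the 5′ end of COL1A1, with scores of 10 and 48. For the other members that distance ran from 453 kb (TWIST1) to 7726 kb (SNAI2).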

How the data were processed

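The submitters' processing notes name the build hg19, Bowtie 1.0.0 and HOMER 1.2. Per the file headers, HOMER findPeaks called each library separately, with its factor setting for the EHF libraries and its histone setting for the other 2, at a false discovery rate of 1%, with 4-fold enrichment over input required. The headers give tag thresholds of 8 (EHF replicate 1), 7 (EHF replicate 2), 13 (H3K4me1) and 17 (H3K27ac), from totals of 10176290, 8418631, 12989646 and 21426939 tags. The deposited score is the authors' tag count per interval, scaled to 10000000 tags and rounded. In the same order the lowest scores are 6, 6, 8 and 6, and how they relate to the thresholds was not determined. An interval missing from a list did not pass these rules, and the tags there are not in the lists. Repeated tags were not examined, and neither was copy number, which can raise scores.

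From the lists, overlaps, coverage and distances were computed with Python 3.11.15 and numpy 2.4.6, after tests on simulated intervals. The 5′ end of a gene is the window edge less 50 kb, on the side given by its strand. Strands came from RefSeq for 4 members and from general knowledge for SNAI2, TWIST1 and COL1A1. Tiles ran from the first base to the furthest interval end on each chromosome. All EHF peaks were named, and all mark regions where a window held 5 or fewer in a list, otherwise at least the widest, the highest-scoring and the one nearest the 5′ end. The genes, windows and lists were chosen with earlier results of these data known. An hg19 annotation and sequence were not used here, so other mesenchymal genes and epithelial genes were not analysed here. The input libraries were not analysed here.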

Additional observations from a re-analysis of the deposited data

How the results depend on the processing

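Of 34 alternatives, 20 left the count within 1.5 times of its reported value, a limit that a fall from 6 windows to 4 still meets. Windows with an H3K27ac region fell from 6 to 4 when narrowed by 40 kb on each side, and so did those with an H3K4me1 region. Counting only regions at or above the median score of their list, 5 windows had H3K27ac and 4 had H3K4me1. Windows narrowed by 40 kb on each side held 9 H3K27ac regions, 15 H3K4me1 regions and 1 EHF peak, in 1 window. The narrowed windows cover fewer bases, and whether this accounts for the lower counts was not tested. Intervals with a score at or above the median of their list numbered 10 for H3K27ac, 13 for H3K4me1 and 2 for EHF, these in 2 windows. EHF peaks numbered from 2 to 3 when 1 replicate was left out, in 2 windows either way, and 0 peaks in 0 windows overlapped a peak of the other replicate. Windows widened by 50 kb brought an H3K27ac region to SNAI2, so that 7 windows had one. Widened windows, or peaks extended by 1000 bp, both chosen after seeing the data, still gave 0 peaks of replicate 1 found in replicate 2. ZEB2 kept 1 of its 2 H3K27ac regions when the centre had to lie in the window. No paired analysis was possible because only the EHF libraries carry replicate numbers and no fit between groups was made. Absence from a list, as at SNAI2, is not evidence that a mark is absent below the calling threshold.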
